A study of Homo sapiens with 4 samples.

Results

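The genes described here encode 8 enzymes that build asparagine, proline and cysteine or move amino groups between amino acids and keto acids. They were *ASNS*, *PYCR1*, *ALDH18A1*, *CBS*, *CTH*, *GPT2*, *GOT1* and *GOT2*. They were found by exact symbol, and all 8 were present among the 20457 features of the deposited tables. The libraries came from HEK293, a long-established human line that originated in embryonic kidney. In siCNOT4, 2 cell samples received 10 nM small interfering RNA (siRNA) against *CNOT4* for 72 h, and their labelled genotype is CNOT4 knockdown. In siControl, 2 samples received a negative control siRNA at the same dose and for the same time, and their labelled genotype is WT. CNOT4 is a ubiquitin ligase that binds the CCR4-NOT deadenylase complex, and the series asks how it bears on the effect of codon usage on expression. RNA was sequenced after poly(A) selection with a stranded kit. The labels do not say that the replicates came from separate cultures, so p-values measure only the spread between these samples, which may be technical.

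Cells make asparagine from aspartate and glutamine, and proline from glutamate by way of pyrroline-5-carboxylate. Cysteine is made from homocysteine and serine by transsulfuration. Alanine and aspartate transaminases pass amino groups between glutamate and pyruvate or oxaloacetate, and the cytosolic and mitochondrial aspartate transaminases also serve the malate-aspartate shuttle, which carries reducing equivalents into mitochondria. Several of these genes, with *ASNS* as the best studied, are induced by the transcription factor ATF4 when amino acids are short. ATF4 acts through a composite C/EBP-ATF response element in their regulatory regions.

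The *ASNS* promoter is shown first because its response element is the best-known regulatory sequence of the group. RefSeq promoter entries (GRCh38.p14) were matched by symbol for 6 of the 8 genes, as 9 entries in all, with 3 for *CBS* and 2 for *ASNS*. Each entry spans 250 bases before to 50 bases after a transcription start. *PYCR1* and *GPT2* had no entry. The following stretches of 30 bases run 5′ to 3′ on the strand of the gene, and capitals mark matches to the motifs searched:
ASNS (chr7:97872447-97872476, minus strand, -68 to -39 from the start): TGATGAAActtcccgcacgcGTTACAggag
GOT1 (chr10:99430804-99430833, minus strand, -209 to -180): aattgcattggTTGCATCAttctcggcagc
ALDH18A1 (chr10:95656830-95656859, minus strand, -148 to -119): gggctggcccgcCACGTGgagcgctggctt

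The core of the C/EBP-ATF response element was searched as TGATGNAA on both strands. It was found in 1 of the 2 *ASNS* entries and, on the opposite strand, in the *GOT1* entry. Of all 35116 promoter entries, 3.62% held it. The second element of the *ASNS* unit, GTTACA, was found in the same *ASNS* entry and in 6.66% of all entries. The cyclic AMP response element TGACGTCA was in no entry of the 6 genes and in 1.85% of all entries. The E-box CACGTG, which reads the same on both strands, was in the *ALDH18A1* entry and in 7.26% of all. These matches describe letters in a window and were not measured as binding sites.

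Values are TPM (an abundance per transcript length), in which reads are divided by gene length and scaled to a sum of 1000000 in each library. TPM keeps no read totals, so the depth behind each value is unknown. Fold changes are differences of log2(TPM + 1) between the group means, which understates changes of low genes. They were fitted with limma over the 14208 features that reached 1 TPM on average, and all 8 enzyme genes were among them. *CNOT4* itself measured 6.43 and 4.73 TPM (siControl) against 3.38 and 3.81 TPM (siCNOT4), a fold change of -0.51 (limma adjusted p = 0.184). Relative to the median of all tested features it was -1.01. Markers of the HEK293 line summed to 2594 and 2347 TPM in siControl and to 1871 and 1875 TPM in siCNOT4, but did not move together. *VIM* (917 and 650 against 369 and 354 TPM), *HNRNPA1* (571 and 625 against 420 and 420 TPM) and *NEFL* were lower in both siCNOT4 libraries. *KRT18* (197 and 193 against 246 and 264 TPM), *NEFM* and *PAX2* were higher in both, and *KRT8* and *TUBB* overlapped between the groups. *NEFM* and *PAX2* were at or below 1.91 TPM in every library. Marker sums of leukocytes (0.544 to 1.60 TPM), endothelium (0 to 0.0742), hepatocytes (0.292 to 0.438) and keratinocytes (0.0352 to 0.219) were low. The fibroblast sum was 1.01 to 7.18 TPM, with *COL1A1* at 1.39 and 0.906 TPM in siControl and 5.09 and 6.60 TPM in siCNOT4. The part of these marker differences in the results below was not tested. The median fold change over all tested features was 0.50 as deposited, and the siControl replicates themselves differed by a median of 0.38, replicate 1 being higher. Ribosomal protein genes took 23.3% and 28.8% of TPM in siControl against 18.1% and 17.3% in siCNOT4, and the part of this difference in the values below was tested only by leaving those genes out. For these reasons fold changes are given relative to the overall median too, and directions that turn with the scaling are named.

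*PYCR1* and *CBS* fell in siCNOT4, *ASNS* was lower without passing the test, and the transaminases and *CTH* did not pass it in either direction. At a limma adjusted p under 0.05, 2 of the 8 genes were called, both lower. Over all tested features 12.6% were called, 1.30% as lower and 11.3% as higher. An unadjusted p under 0.05 was reached by 4 of the 8 genes and by 42.0% of all features. A negative fold change was found for 5 of the 8 genes and for 18.8% of all features. The groups did not overlap for 3 genes that were lower in siCNOT4 (*PYCR1*, *CBS* and *ASNS*) and 1 that was higher (*GOT1*), against 10.6% and 66.4% of all features in these directions. The median fold change of the 8 genes was -0.12, beside 0.50 for all features, and each of the 8 lay below that overall median as deposited, *CTH* and *GOT1* by only 0.09, which is less than their SEs. The number below the overall median was 6 without a filter on low values and with quantile normalization, and 7 or 8 in the other alternatives. Fits that left out 1 siControl library called 79.6% (replicate 1) and 57.4% (replicate 2) of features, and calls gained in them are to be read against those shares. Fewer cells that express a gene and less of its RNA per cell cannot be told apart in such bulk libraries.

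**Figure D1:**
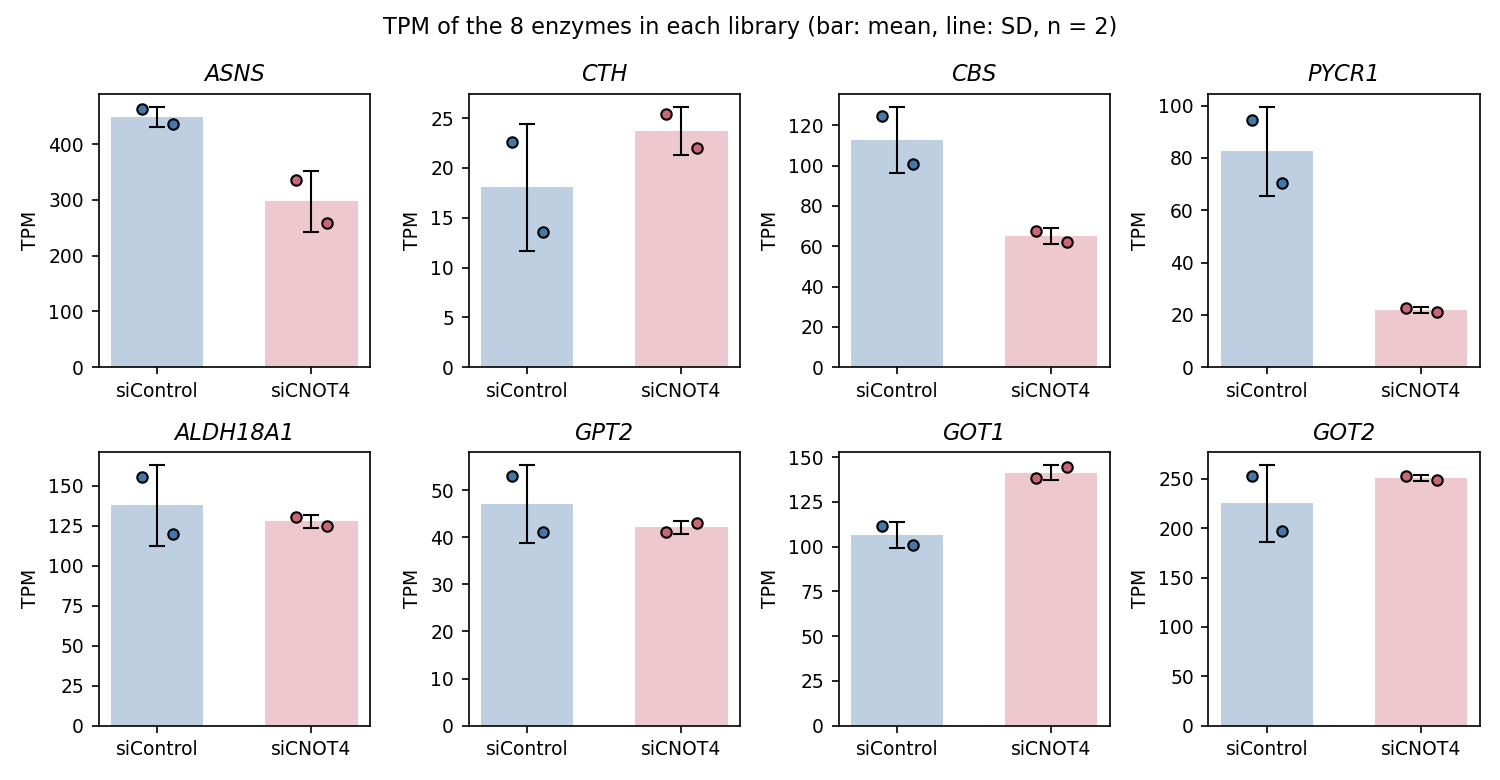
TPM (vertical axis, starting at 0) of each enzyme gene in the siControl and siCNOT4 libraries. Points are the 2 libraries of a group with replicate 1 on the left, bars their mean and lines the SD; the groups are apart for *ASNS*, *CBS*, *PYCR1* and *GOT1* and overlap for the other 4 genes.

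The widest difference among the 8 genes was in proline synthesis. *PYCR1* encodes a mitochondrial pyrroline-5-carboxylate reductase, which performs the last step to proline (chromosome 17, 81932384 to 81942412, GENCODE 29, GRCh38). It was 94.6 and 70.5 TPM in the siControl libraries and 22.7 and 21.0 TPM in the siCNOT4 libraries. Both siCNOT4 libraries lay far below both siControl libraries, and their own difference was small. The group means were 82.5 ± 17.1 and 21.8 ± 1.19 TPM (SD, n = 2), a ratio of 0.265. The log2 fold change of *PYCR1* was -1.86 (SE 0.23, 95% interval -2.40 to -1.31, limma adjusted p = 0.0227), or -2.36 relative to the median of all features. Only 7 of the tested features had a lower fold change. In the ranking of all features by TPM, where 1 is the most abundant, positions also differed between libraries at like TPM. For *GPT2*, 41.2 TPM was position 3258 in siControl replicate 2 and 4559 in siCNOT4 replicate 1. With that limit, *PYCR1* moved from positions 1801 and 2062 in siControl to 7008 and 7441 in siCNOT4. It stayed called under all 12 alternatives tried, with limma adjusted p values from 7.98e-07 to 0.0441. The lowest came from the fit with the replicate number as a block, in which its SE was larger (0.32 against 0.23). Annotated genes overlap *PYCR1* on both strands, including *MYADML2* on its own strand, but none of them was among the tested features. Whether the authors' counting used strand is not given in the sources used here.

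*ALDH18A1* encodes pyrroline-5-carboxylate synthase, the enzyme that starts the route from glutamate to proline (chromosome 10, 95605929 to 95656706). It was 155 and 120 TPM in siControl and 130 and 125 TPM in siCNOT4. The siCNOT4 libraries lay between the siControl libraries, so the groups overlapped. Its fold change was -0.10 (SE 0.18, 95% interval -0.54 to 0.34, limma adjusted p = 0.692). It was 0.088 without siControl replicate 1 (limma adjusted p = 0.312), -0.28 without siControl replicate 2 (limma adjusted p = 0.0201) and -0.71 after median-ratio scaling (limma adjusted p = 0.0541). Relative to the median of all features, *ALDH18A1* was at -0.60 as deposited. The cytosolic reductase gene *PYCRL*, now named *PYCR3*, was 12.4 and 12.7 against 10.3 and 11.1 TPM (-0.21, limma adjusted p = 0.546).

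Both genes of transsulfuration belong to 1 route but did not show the same values. *CBS* encodes cystathionine beta-synthase, which joins homocysteine and serine (chromosome 21, 43053191 to 43076943). It was 124 and 101 TPM in siControl and 67.7 and 62.3 TPM in siCNOT4, and the groups did not overlap. The means were 113 ± 16.6 and 65.0 ± 3.82 TPM (SD, n = 2), a ratio of 0.577. Its fold change was -0.78 (SE 0.18, 95% interval -1.22 to -0.33, limma adjusted p = 0.0474), or -1.28 relative to the median of all features. The call lies close to the threshold. It was lost in 6 of 12 alternatives, with a limma adjusted p of 0.344 without siCNOT4 replicate 1 and 0.429 without siCNOT4 replicate 2, while the fold change stayed below 0 in all 12. *CTH* encodes cystathionine gamma-lyase, which releases cysteine from cystathionine (chromosome 1, 70411218 to 70439851). It was 22.6 and 13.6 TPM in siControl and 25.4 and 22.0 TPM in siCNOT4, and the groups overlapped. The difference on the log2 scale was 0.41 (SE 0.31, 95% interval -0.34 to 1.17, limma adjusted p = 0.325) as deposited, but -0.17 after median-ratio scaling and -0.14 after quantile normalization. It was 0.76 without siControl replicate 1 (limma adjusted p = 0.00161) and 0.066 without siControl replicate 2 (limma adjusted p = 0.653).

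*ASNS* encodes asparagine synthetase, which makes asparagine from aspartate with glutamine as the nitrogen donor (chromosome 7, 97852118 to 97872542). It was the most abundant of the 8 mRNAs, at 462 and 437 TPM in siControl and 336 and 258 TPM in siCNOT4. The groups did not overlap, and the siCNOT4 replicates differed more from each other than the siControl replicates. The means were 449 ± 18.1 and 297 ± 54.8 TPM (SD, n = 2), a ratio of 0.662. The log2 fold change of *ASNS* was -0.61 (SE 0.17, 95% interval -1.01 to -0.20), and the limma adjusted p of 0.0594 missed the threshold. Relative to the median of all features it was -1.11, and 427 tested features, or 3.01%, had a lower fold change. The call depended on the scaling and the libraries used. After median-ratio scaling the fold change was -1.22 (limma adjusted p = 0.0496), with ribosomal protein genes left out -0.76 (limma adjusted p = 0.0496), and after quantile normalization -0.62 (limma adjusted p = 0.0606). It was -0.57 without siControl replicate 1 (limma adjusted p = 0.0144) and -0.65 without siControl replicate 2 (limma adjusted p = 0.0130). It was -0.79 without siCNOT4 replicate 1 (limma adjusted p = 0.238) and -0.42 without siCNOT4 replicate 2 (limma adjusted p = 0.578).

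Both aspartate transaminases had higher means in siCNOT4 as deposited, and neither passed the test. *GOT1* encodes the cytosolic enzyme (chromosome 10, 99396870 to 99431569). It was 111 and 101 TPM in siControl and 138 and 144 TPM in siCNOT4, and the groups did not overlap. Its fold change was 0.41 (SE 0.15, 95% interval 0.03 to 0.78, limma adjusted p = 0.101), but -0.20 after median-ratio scaling and 0.16 after quantile normalization. Leaving out siControl replicate 1 gave a limma adjusted p of 0.00159, and leaving out siControl replicate 2 gave 0.0110, in the fits that called most features. Leaving out siCNOT4 replicate 1 gave 0.597, and leaving out siCNOT4 replicate 2 gave 0.678, for the limma adjusted p. *GOT2* encodes the mitochondrial enzyme (chromosome 16, 58707131 to 58734357). It was 253 and 198 TPM in siControl and 253 and 249 TPM in siCNOT4, so 1 siControl library matched the siCNOT4 libraries and the other was lower. Its fold change was 0.17 (SE 0.17, 95% interval -0.24 to 0.57, limma adjusted p = 0.449), or -0.33 relative to the median of all features. It was instead -0.44 after median-ratio scaling and -0.01 without siControl replicate 2. Without siControl replicate 1 it was 0.34 (limma adjusted p = 0.00415), but leaving out either siCNOT4 library gave limma adjusted p values of 0.832 and 0.833.

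The mitochondrial alanine transaminase gene *GPT2* (chromosome 16, 46884378 to 46931297) was 52.9 and 41.2 TPM in siControl and 41.2 and 43.0 TPM in siCNOT4. The groups overlapped, with 3 of the 4 libraries close together and siControl replicate 1 above them. For *GPT2* the fold change was -0.15 (SE 0.21, 95% interval -0.66 to 0.37, limma adjusted p = 0.605), or -0.65 relative to the median of all features. It was 0.030 without siControl replicate 1 (limma adjusted p = 0.765) and -0.32 without siControl replicate 2 (limma adjusted p = 0.0211). After median-ratio scaling it was -0.75 (limma adjusted p = 0.0438) and after quantile normalization -0.57 (limma adjusted p = 0.0425). The cytosolic alanine transaminase gene *GPT* was at 0.0409 and 0 TPM in siControl and 0.0430 and 0.130 TPM in siCNOT4, too low to be tested.

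**Figure D2:**
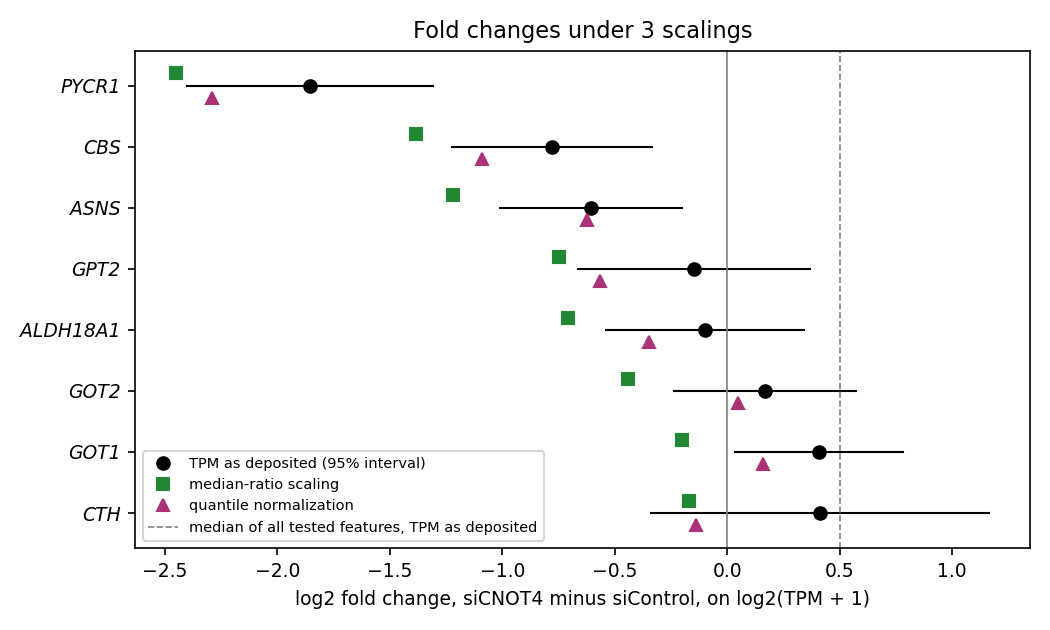
Log2 fold change of siCNOT4 minus siControl (horizontal axis) for each enzyme gene with TPM as deposited (circles, with limma 95% intervals), after median-ratio scaling (squares) and after quantile normalization (triangles). *PYCR1*, *CBS*, *ASNS*, *GPT2* and *ALDH18A1* are below 0 under all 3, *CTH*, *GOT1* and *GOT2* change sign in at least 1, and every circle lies left of the dashed median of all features at 0.50.

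The choice of scaling moved the 8 genes to different degrees. With median-ratio scaling, which brought the median of all features to -0.06, all 8 fold changes were negative and 4 genes were called lower (*PYCR1*, *CBS*, *ASNS* and *GPT2*), against 5.23% of features called lower under that scaling. With quantile normalization, which left *ASNS* at -0.62 but moved *CTH* from 0.41 to -0.14, 6 fold changes were negative and 3 genes were called lower (*PYCR1*, *CBS* and *GPT2*), against 8.23% of features. The order from *PYCR1* as the most negative, through *CBS*, to *ASNS* was the same under both scalings and in the values as deposited.

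**Figure D3:**
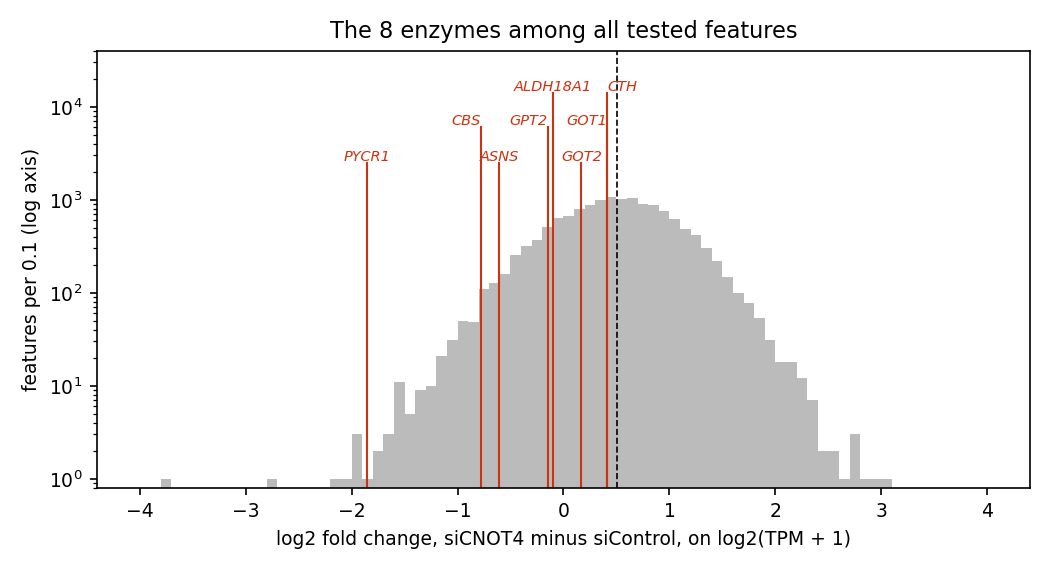
Number of tested features (vertical log axis) by log2 fold change of siCNOT4 minus siControl with TPM as deposited, in steps of 0.1. Red lines mark the 8 enzyme genes and the dashed line the median of all features at 0.50; *PYCR1* at -1.86 lies in the sparse lower tail, and *GOT1* and *CTH*, both at 0.41, lie near the centre.

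The levels of the 8 mRNAs can be ordered because TPM is per length. In siControl the order of mean TPM was *ASNS*, *GOT2*, *ALDH18A1*, *CBS*, *GOT1*, *PYCR1*, *GPT2* and *CTH*. The libraries of *ALDH18A1* overlapped those of *CBS*, and those of *CBS* overlapped those of *GOT1*, while the other neighbours did not overlap. In siCNOT4 the order was *ASNS*, *GOT2*, *GOT1*, *ALDH18A1*, *CBS*, *GPT2*, *CTH* and *PYCR1*, and only *CTH* and *PYCR1* overlapped. *PYCR1* thus went from the sixth to the last position. The 8 genes summed to 1276 and 1081 TPM in siControl and to 1015 and 925 TPM in siCNOT4. *ASNS* made up 36.2% and 40.4% of that sum in siControl and 33.1% and 27.9% in siCNOT4, and *PYCR1* 7.42% and 6.52% against 2.24% and 2.27%.

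Ratios of enzymes within a library do not change when all its values are divided by a common factor, apart from the pseudocount. Quantile normalization is not such a division, and the ratios were not recomputed under it. For 4 pairs in which both genes were well above 0, the siCNOT4 ratios lay outside the range of the siControl ratios. *ALDH18A1*, at the start of the proline route, was 1.64 and 1.70 times as abundant as *PYCR1* in siControl and 5.75 and 5.94 times in siCNOT4. On the log2(TPM + 1) scale that ratio was higher by 1.76 in siCNOT4, while the replicates of each group were almost equal (0.73 ± 0.03 and 2.49 ± 0.03, SD, n = 2). The *CTH* to *CBS* ratio was 0.181 and 0.134 in siControl but 0.376 and 0.354 in siCNOT4, a log2 difference of 1.19. *ASNS* was 4.15 and 4.32 times as abundant as *GOT1* in siControl and 2.43 and 1.79 times in siCNOT4, a log2 difference of -1.02. The *GOT1* to *GOT2* ratio was 0.441 and 0.512 in siControl against 0.546 and 0.580 in siCNOT4, a log2 difference of 0.24, the smallest of the 4. An exact two-sided permutation test over the libraries gave p = 0.33 for each of these pairs (0.33 after Benjamini-Hochberg adjustment over the 6 pairs computed), which is the smallest value that 2 libraries against 2 allow. In the pair *GPT2* and *GPT* the second gene was near 0, so its ratio is not read here.

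**Figure D4:**
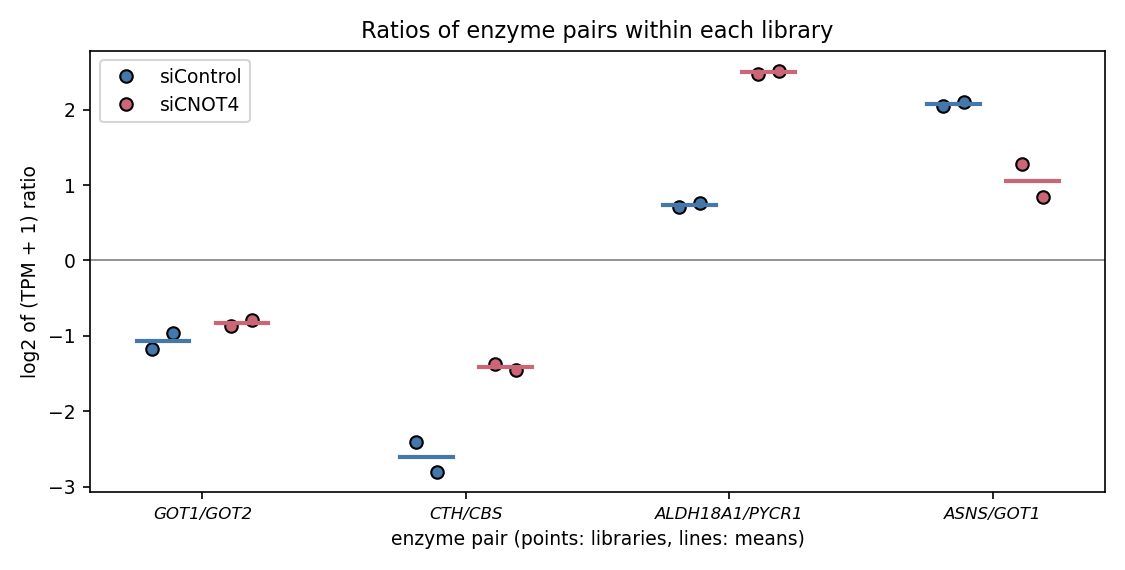
Log2 of the (TPM + 1) ratio of 2 enzyme genes within each library (vertical axis) for 4 pairs, with siControl in blue and siCNOT4 in red. Points are libraries and short lines group means; the groups are farthest apart for *ALDH18A1* to *PYCR1* (difference 1.76), and nearest for *GOT1* to *GOT2* (0.24).

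Because the series concerns codon usage, the coding sequences of the 8 genes were read from GENCODE 29 transcripts. GC3, the percentage of codons whose last base is G or C, was 83.7% in *CBS*, 78.1% in *PYCR1* and 77.6% in *GPT2*, all above the third quartile of 73.4% over 12253 tested genes. It was 60.2% in *GOT2*, 59.3% in *GOT1* and 54.3% in *ALDH18A1*, around the median of 59.2%. It was 42.2% in *CTH* and 41.7% in *ASNS*, below the first quartile of 44.1%. The 2 called genes thus had high GC3, as did *GPT2*, which was not called as deposited, and *ASNS*, whose fold change was the lowest after those of *PYCR1* and *CBS*, had the lowest GC3 of the 8. The part of codon composition in the fold changes was not tested over these 8 genes. The first 20 codons of 4 of them are shown to make the contrast visible, with the last base of a codon in capitals where it is G or C:
PYCR1: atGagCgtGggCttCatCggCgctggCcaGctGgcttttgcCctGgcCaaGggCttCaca
CBS: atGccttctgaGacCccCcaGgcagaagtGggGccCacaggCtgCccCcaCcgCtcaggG
ASNS: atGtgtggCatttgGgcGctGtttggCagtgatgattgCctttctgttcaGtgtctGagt
CTH: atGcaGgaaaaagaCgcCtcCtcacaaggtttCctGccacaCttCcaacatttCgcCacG
Of these 20 codons, 16 end in G or C in *PYCR1*, 14 in *CBS*, 9 in *ASNS* and 12 in *CTH*.

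The other enzymes of the same routes were read from lists of neighbouring reactions, without the 8 genes. Over all tested features 11.3% were called higher and 1.30% lower, and 42.0% had an unadjusted p under 0.05 in either direction. The counts of each list, here and below, are to be read against these shares. In proline and ornithine metabolism, 2 of 10 tested genes rose and 1 fell. *OAT*, which encodes ornithine aminotransferase, another source of pyrroline-5-carboxylate, was 169 and 132 TPM in siControl and 300 and 302 TPM in siCNOT4 (fold change 1.01, limma adjusted p = 0.0285). *PEPD*, which encodes the dipeptidase that frees proline, had a fold change of 1.02 (limma adjusted p = 0.0309). *ODC1*, the gene of ornithine decarboxylase, which starts polyamine synthesis, fell by 0.75 on the log2 scale (limma adjusted p = 0.0307). Relative to the median of all features *OAT* was at 0.51, *PEPD* at 0.52 and *ODC1* at -1.25. *OAT* and *PEPD* stayed above 0 under both other scalings, but neither was called after median-ratio scaling (limma adjusted p = 0.158 and 0.169). Both were called after quantile normalization (limma adjusted p = 0.0269 and 0.0357) and with ribosomal protein genes left out (limma adjusted p = 0.0348 and 0.0389).

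In asparagine, aspartate and glutamine metabolism, 1 of 13 tested genes rose and 0 fell by limma, while 4 higher and 0 lower genes had an unadjusted p under 0.05. The called gene was *ASL*, which encodes argininosuccinate lyase, with a fold change of 1.03 (limma adjusted p = 0.0453), or 0.53 relative to the median of all features. It was not called after median-ratio scaling (0.45, limma adjusted p = 0.211) or quantile normalization (0.53, limma adjusted p = 0.164). In the methionine cycle, transsulfuration and cysteine use, 4 of 19 tested genes rose and 1 fell. The 4 were *GNMT* (glycine N-methyltransferase, 1.11), *AHCYL1* (1.07), *GCLC* (the catalytic subunit of glutamate-cysteine ligase, 0.93) and *MAT1A* (a methionine adenosyltransferase, 0.84), with limma adjusted p values of 0.0441, 0.0475, 0.0481 and 0.0480. Relative to the median of all features these fold changes were 0.61, 0.57, 0.43 and 0.34. Both *GNMT* and *MAT1A* were low, at or below 2.77 TPM in every library. After median-ratio scaling, and with ribosomal protein genes left out, all 4 were above 0 and none was called. Quantile normalization called *AHCYL1* and *GCLC* (limma adjusted p = 0.0415 and 0.0457) but not *GNMT* or *MAT1A* (limma adjusted p = 0.320 and 0.372). *AHCY*, which encodes the hydrolase that yields homocysteine, the substrate of *CBS*, fell by 0.70 (limma adjusted p = 0.0352), though its adjusted p was 0.0503 after median-ratio scaling. The calls of this methionine list, *AHCY* included, depended on other settings too. With a pseudocount of 0.1, without a filter on low values, at a mean TPM of at least 5 and without the trend, 0 of its genes were called. With the replicate number as a block, 6 were called.

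Among 10 other transaminases tested, *OAT* rose and *PSAT1* fell, and the remaining 8 did not pass the test. *PSAT1*, the phosphoserine aminotransferase of serine synthesis, was 368 and 267 TPM in siControl and 183 and 156 TPM in siCNOT4 (fold change -0.88, limma adjusted p = 0.0439). Of 10 tested partners of the malate-aspartate shuttle 0 were called by limma, while 3 higher and 2 lower genes had an unadjusted p under 0.05, and quantile normalization called 2. The largest fold changes there as deposited were 0.99 in *SLC25A12*, an aspartate-glutamate carrier (limma adjusted p = 0.0702), and 0.58 in *ME1*, the cytosolic malic enzyme (limma adjusted p = 0.112). Relative to the median of all features they were 0.49 and 0.08, and *ME1* turned to -0.02 after median-ratio scaling. The 2 lower genes were *SLC25A11* (-0.54, limma adjusted p = 0.0599) and *MDH2* (-0.41, limma adjusted p = 0.0713), at -1.04 and -0.91 relative to that median.

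ATF4 and other genes known as its targets were listed for comparison, with results of these data already known, so their count is not independent evidence. Of 31 tested genes, 11 fell and 0 rose, against 1.30% and 11.3% of all features. A negative fold change was found for 24 of the 31, against 18.8% of all features. An unadjusted p under 0.05 was reached by 15 lower and 2 higher genes. The 2 higher were *ATF3* (0.76, limma adjusted p = 0.0780) and *ALDH1L2* (0.81, limma adjusted p = 0.0876), at 0.26 and 0.30 relative to the median of all features. *ALDH1L2* was at or below 3.55 TPM in every library. The median fold change of the list was -0.48, compared with 0.50 over all features and -0.12 over the 8 enzyme genes. *ATF4* itself was 1005 and 1151 TPM in siControl and 358 and 352 TPM in siCNOT4 (fold change -1.60, limma adjusted p = 0.0227). The other 4 of the 5 lowest were *EIF4EBP1* (-3.80, limma adjusted p = 0.00534), which encodes a repressor of cap-dependent translation, *NUPR1* (-2.76), a stress-induced regulator, *STC2* (-1.58), a secreted stress protein, and *DDIT4* (-1.57), an inhibitor of mTORC1. The adjusted p of the last 3 was 0.0227, 0.0244 and 0.0227. The remaining 20 genes of this list did not pass the test.

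**Figure D5:**
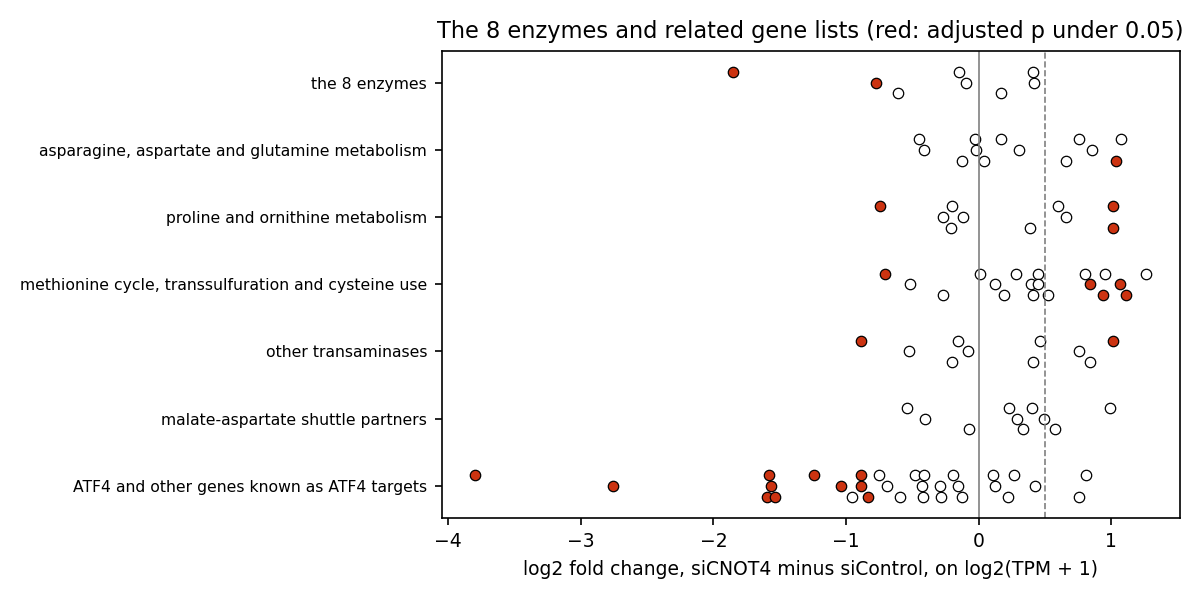
Log2 fold change of siCNOT4 minus siControl (horizontal axis) for each tested gene of the 8 enzymes and of 6 related lists, 1 point per gene, filled where the limma adjusted p is under 0.05. The dashed line is the median of all features at 0.50; the ATF4 list reaches -3.80 and holds 11 called genes, all lower, whereas the metabolic lists hold 0 to 5 called genes each, and *OAT* and *PSAT1* appear in 2 lists.

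Features whose profile over the 4 libraries was most like the mean profile of the 8 genes were sought among the 11387 features averaging 5 TPM or more. Likeness was the Euclidean distance between profiles of log2(TPM + 1), each centred on its own mean. The nearest were *KCNJ8* (distance 0.0355), *C22orf39* (0.0359), *SORD* (0.0438), *TOMM20* (0.0451) and *FAM210B* (0.0457), with fold changes of -0.27 to -0.35, none of them called by limma. Nearest to *ASNS* alone were *SNORD50B* (distance 0.0595), *CXCR4* (0.157), *FAM216A* (0.162), *C16orf74* (0.172) and *RSL24D1* (0.178), and none of these was called either. With 4 libraries such a match is a description only.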

How the data were processed

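The authors deposited 1 table of TPM per library, per the file headers, in which each library sums to 1000000. Per the submitters' processing notes the tools were FastQC 0.11.2, STAR 2.5.3a and featureCounts with build hg19; their settings, the annotation and the use of strand are not given in the sources used here. Groups were taken from sample titles. The members, gene lists and alternatives were chosen with earlier results of these data known. TPM was transformed to log2(TPM + 1), features averaging at least 1 TPM were kept, and the contrast was fitted in limma 3.58.1 (R 4.3.3; lmFit, eBayes with a trend, no covariates, Benjamini-Hochberg adjustment over all features, threshold 0.05). This step was checked on simulated data with known changes. The simulated libraries had no shift between them, so the check cannot show how calls behave under the shifts seen here. The genes named were the 8 enzyme genes, *CNOT4*, the partners in the enzyme pairs and the 5 nearest profiles. Each list added up to 5 called genes per direction, or the 2 with the largest fold change. Named after their values were seen were *COL1A1*, the markers of the HEK293 line, *PYCRL*, *MYADML2*, *SLC25A11*, *MDH2*, *ATF3* and *ALDH1L2*. Median-ratio scaling divided each library by its median ratio to the geometric mean. Gene positions and codons came from GENCODE 29 (GRCh38; APPRIS principal transcript, then the longest), matched by symbol. Coordinates were not converted between builds. The partner of 1 of the 6 enzyme pairs, and that pair, are not reported here.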

Additional observations from a re-analysis of the deposited data

How the results depend on the processing

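The results were recomputed under 12 alternatives. As deposited, 1792 features were called (1608 higher, 184 lower) and 2 of the 8 enzyme genes. A pseudocount of 0.1 gave 558 (478 and 80), no filter on low values 908 (847 and 61), a mean TPM of at least 5 gave 147 (109 and 38), and limma without the trend 756 (703 and 53), each with 1 enzyme gene called, *PYCR1*. Median-ratio scaling gave 541 higher and 738 lower with 4 enzyme genes called, quantile normalization 1010 and 1169 with 3, and leaving out the 85 ribosomal protein genes 1032 and 230 with 3. Leaving out 1 library gave 321 to 11407 called features (286 to 10169 higher, 32 to 1465 lower) and 1 to 6 enzyme genes; the lone library left in a group is then assumed to vary like the other group, and the siControl replicates differed more than the siCNOT4 replicates. Relative to all features, the median fold change of the enzyme genes was -0.62 as deposited, -0.68 with a pseudocount of 0.1, -0.47 without a filter, -0.67 after median-ratio scaling, -0.48 after quantile normalization and -0.65 to -0.60 when 1 library was left out. Signs turned for *CTH* (-0.17 with median-ratio scaling, -0.14 with quantile normalization), *GOT1* (-0.20 with median-ratio scaling), *GOT2* (-0.44 with median-ratio scaling), and, when 1 library was left out, for *GOT2* (-0.0080 to 0.34), *ALDH18A1* (-0.28 to 0.088) and *GPT2* (-0.32 to 0.030). The cause was not tested. The log2 ratio of *ALDH18A1* to *PYCR1* was 1.76, and 1.80 with a pseudocount of 0.1; that of *GPT2* to *GPT* went from -0.24 to -0.76. Leaving out 1 library kept the sign of each ratio reported. With the replicate number as a block, 3655 features were called (3342 higher, 313 lower) and 3 enzyme genes, *ASNS* now with a limma adjusted p of 0.0141. At unchanged fold changes the SEs in that fit were larger than as deposited. They were 0.20 against 0.17 for *ASNS*, 0.26 against 0.18 for *CBS* and 0.32 against 0.23 for *PYCR1*. The lower p values of these 3 genes thus did not come from a smaller spread and are not read as stronger evidence. The labels do not say what a shared number marks, so the numbers were not taken as pairs. Deviations of same-numbered libraries correlated at 0.171 across features, which with 2 libraries per group cannot show whether the numbers mark pairs. Over all alternatives the number of called genes ranged from 0 to 9 in the asparagine list, 0 to 6 in proline, 0 to 17 in methionine, 0 to 6 in transaminases, 0 to 9 in the shuttle and 6 to 28 in the ATF4 list. TPM carries no read totals, so the counting error of each value is unknown.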
